A study of Drosophila melanogaster with 4 samples.

Results

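The X chromosome of Drosophila melanogaster carried 2947 regions enriched for H3K9me1, the mono-methylated form of lysine 9 on histone H3, in the combined region list of wild-type larvae. The domains described here are the 2612 of them that are shorter than 10 kb and have their midpoint at or below position 20422827 (FlyBase release 5), out of 13702 enriched regions on all sequences. That limit leaves out the last 2 Mb of the 22422827 bp sequence, next to the centromere. Domains were chosen by call, length and position in the combined list, so their number, length and score describe the choice and are not tested. The stretch held a further 143 domains of 10 kb or more, and 192 enriched regions lay beyond the limit. The longest domain inside the length limit measured 9958 bp with a score of 0.562, and the shortest one outside it 10018 bp with a score of 0.741. The last domain before the position limit ended at 20408690, and the next one beyond it began at 20456456.

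Both ChIP libraries were made with antibody lot 2 from nuclei of wild-type Oregon-R larvae at the third instar, and each was paired with its own input library of unprecipitated chromatin. The 4 samples thus form one genotype and one stage, with ChIP replicates 2 and 1 and their inputs. The labels name larval nuclei without a tissue, so the calls may mix cell types, and they do not give the sex of the larvae. Nothing in them says whether the replicates are separate collections, so differences between them may be technical.

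Lysine 9 of histone H3 can be mono-, di- or trimethylated, by enzymes that in flies include Su(var)3-9, G9a and eggless. The di- and trimethylated forms are bound by HP1 and mark heterochromatin, whereas the mono-methylated form is both a product in its own right and a step on the way to them. The fly X has chromatin of its own in males, where the MSL complex binds active X-linked genes and acetylates histone H4 for dosage compensation.

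Replicate 2 marked more of the X than replicate 1. In the stretch up to the limit, replicate 2 listed 2629 domains and replicate 1 listed 1507. Domains covered 8.49 Mb of it in replicate 2 and 5.98 Mb in replicate 1. As a share of the stretch this was 41.6% in replicate 2 and 29.3% in replicate 1, a mean of 35.4% ± 8.70 (SD, n = 2). The replicates thus differed by 12.3 percentage points, and with 2 samples of one group no test of that gap was possible. The labels and headers state no read depth, so no counting error can be attached.

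Shared bases were set apart from bases marked in one replicate. Domains of both replicates overlapped on 4.11 Mb, or 20.1% of the stretch, which was 48.3% of the bases of replicate 2 and 68.7% of those of replicate 1. Another 4.39 Mb (21.5%) were covered in replicate 2 alone and 1.87 Mb (9.17%) in replicate 1 alone. The remaining 49.2% lay in no domain of either list. The extra sequence of replicate 2 was therefore slightly more extensive than everything the replicates shared.

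The same separation was made for the 2612 domains of the combined list, by overlap of at least 1 bp with the replicate lists. A total of 905 (34.6%) overlapped domains of both replicates, 1110 (42.5%) overlapped replicate 2 alone, 301 (11.5%) overlapped replicate 1 alone and 296 (11.3%) overlapped neither. Among the 9419 domains chosen by the same rule on 2L, 2R, 3L and 3R, the shares were 34.2% for both, 25.7% for replicate 2 alone, 26.3% for replicate 1 alone and 13.8% for neither. The share found in both replicates was thus close to the background of the autosomal arms. The larger departure on X was in how the remainder divided between the replicates. On X there were 3.69 times as many domains of replicate 2 alone as of replicate 1 alone, against 0.978 times on the autosomal arms. A single chromosome in 2 replicates gives no test of this difference, and the combined list rests on the same samples. Replicate 2 alone was the largest class over all domains, but not among those at or above the median score (56.7% in both, 31.1% in replicate 2 alone) or from 1301 bp (43.0% in both, 40.5% in replicate 2 alone).

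Each autosomal arm showed the even division. Replicate 2 alone took from 24.5% (3L) to 27.3% (2R) of the domains and replicate 1 alone from 25.2% (2R) to 27.3% (3L). The covered share of the autosomal arms, measured without their proximal 2 Mb, was lower in replicate 2 than in replicate 1 on each arm, with differences from -2.96 points (2R) to -6.21 points (3L). Domains under 10 kb were also more closely packed on X, at 128 per Mb against 101 to 114 per Mb on the autosomal arms. Their median length was alike, 2036 bp on X against 1974 to 2055.5 bp on the other arms. Their median score in the combined list was higher on X, at 0.431 against 0.360 to 0.372. This held within the classes too, with 0.583 against 0.495 to 0.531 for domains found in both, and 0.400 against 0.322 to 0.337 for replicate 2 alone. These differences were not tested.

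**Figure D1:**
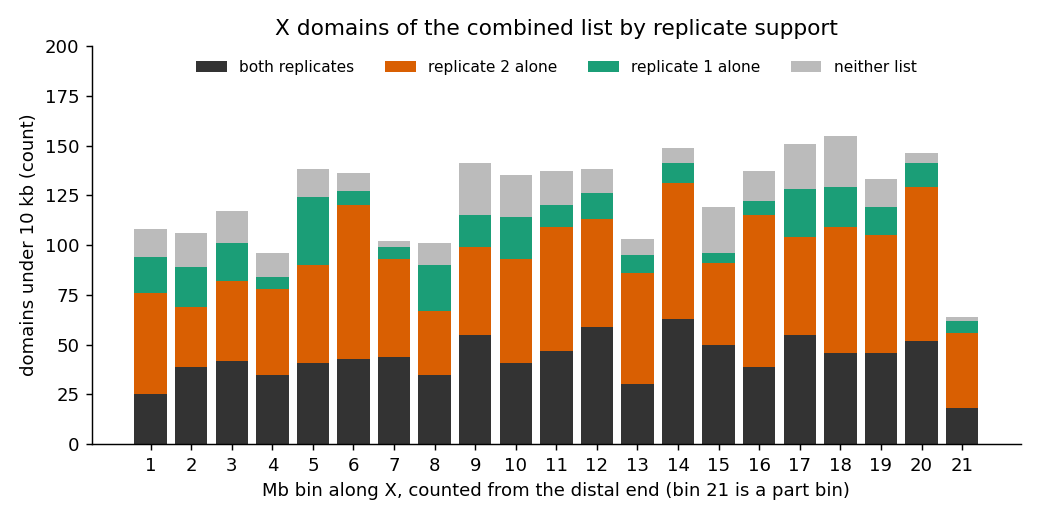
Stacked bars give the number of X domains under 10 kb in each 1 Mb bin, counted from the distal end, by the replicate lists that they overlap. Domains of replicate 2 alone outnumbered those of replicate 1 alone in each of the 20 full bins, while the number found in both ran from 25 to 63.

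Along the chromosome the domains were spread over the whole stretch. The 20 full bins of 1 Mb held 96 to 155 domains, with a median of 135.5. Fewest lay in the fourth bin, from 3 to 4 Mb, and most in the 18th, from 17 to 18 Mb. The fullest bin thus held 1.61 times as many domains as the emptiest. Domains found in both replicates numbered 25 to 63 per bin, lowest in the first Mb and highest from 13 to 14 Mb.

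Domains of replicate 2 alone ranged more widely, from 30 in the second Mb to 77 in the sixth and 77 again in the 20th. They outnumbered domains found in both in 13 of the 20 bins, and domains of replicate 1 alone in all 20. Domains of replicate 1 alone numbered 5 to 34 per bin. Their highest number, 34, was in the fifth Mb, directly before the sixth, where replicate 2 alone reached 77 and replicate 1 alone had 7.

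**Figure D2:**
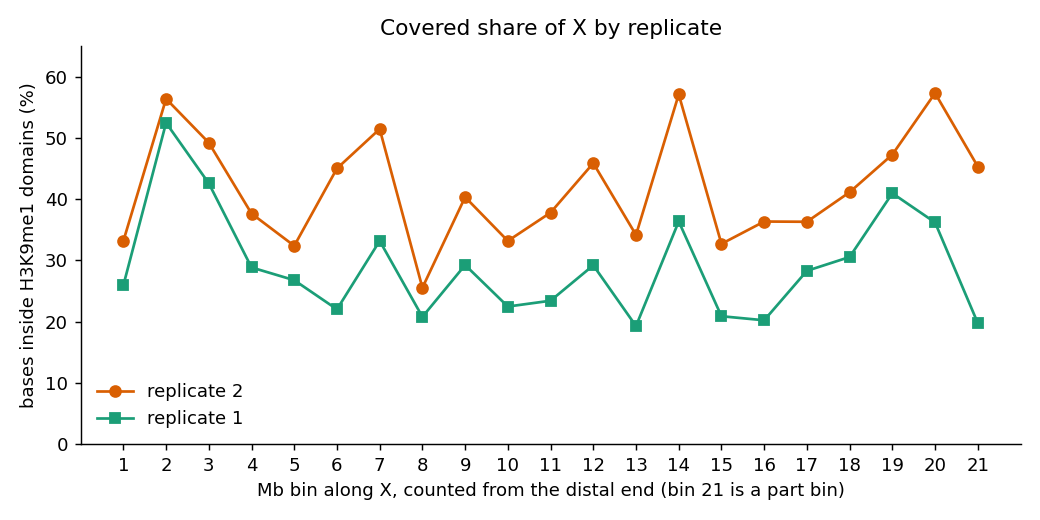
The percentage of bases inside domains is shown for each Mb bin of X in replicate 2 (circles) and replicate 1 (squares), counted from the distal end. Replicate 2 lies above replicate 1 in each full bin, by 3.92 points in the second bin and by 23.0 points in the sixth.

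Coverage was highest and lowest in other bins than the number of domains. It ran from 25.5% to 57.3% per full bin in replicate 2, with a median of 39.1%, and from 19.3% to 52.5% in replicate 1, with a median of 28.6%. Replicate 2 was higher in all 20 bins. The gap was smallest in the second Mb, where replicate 2 covered 56.4% and replicate 1 covered 52.5%. It was widest in the sixth, at 45.0% in replicate 2 and 22.0% in replicate 1. The excess of replicate 2 was hence found from end to end of the stretch, but its size varied from place to place.

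Lengths differed by replicate support. Domains found in both replicates had a median length of 3992 bp (quartiles 2673 and 5981 bp), whereas those of replicate 2 alone had 1735.5 bp (1322.5 and 2423 bp) and those of replicate 1 alone 1752 bp (1427 and 2247 bp). Domains found in neither measured 1201 bp (1084.75 and 1407.5 bp). Both single-replicate classes thus had nearly the same length. A long domain is more likely to touch another by 1 bp, so part of this order is built into the overlap criterion. No replicate domain is shorter than 1301 bp, and 199 of the 296 domains found in neither (67.2%) were shorter than that, against 4 of the 905 found in both.

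**Figure D3:**
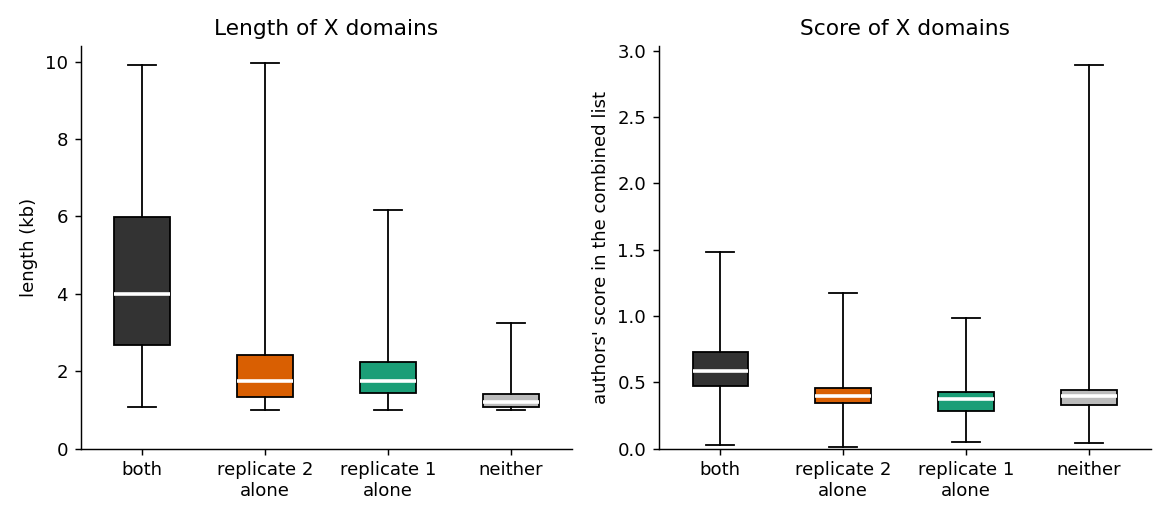
Boxes give the quartiles and whiskers the full range of length (left, kb) and of the authors' score in the combined list (right) for X domains in the 4 classes of replicate support. Domains found in both had a median length of 3992 bp and a median score of 0.583, and the highest score of all, 2.89, belonged to a domain found in neither.

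The authors' score in the combined list ordered the classes in the same way at the top. Its median was 0.583 for domains found in both, 0.400 for replicate 2 alone, 0.372 for replicate 1 alone and 0.393 for neither. Among the highest 10% of scores, 234 of 261 domains (89.7%) were found in both and 16 were of replicate 2 alone. Among the lowest 10%, 29 of 261 (11.1%) were found in both and 129 (49.4%) were of replicate 2 alone. High-scoring domains on X were thus mostly shared, and the extra domains of replicate 2 lay mainly at low and middle scores. The combined score and the classes both derive from these ChIP replicates, so they are not independent. A domain called in each replicate may score higher for that reason alone. Part of this order, here and within the length classes below, may therefore be built in. The same order stood on the autosomal arms, where domains found in both had a median length of 3798 bp and a median score of 0.504, and those of replicate 2 alone 1684 bp and 0.332.

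Score and length move together, so the scores were also read within 3 length classes of nearly equal size. In the longest, from 2899 bp, the median score was 0.647 for the 639 domains found in both and 0.494 for the 185 of replicate 2 alone. In the middle class it was 0.471 for 250 domains found in both and 0.408 for 449 of replicate 2 alone. In the shortest, up to 1587 bp, the order turned round, at 0.289 for both and 0.370 for replicate 2 alone, although 16 domains there were found in both. Long domains of replicate 2 alone did exist, and the longest reached 9958 bp.

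Where both replicates called, most of a domain lay inside each list. Domains found in both had a median of 84.0% of their length inside domains of replicate 2 and 84.8% inside domains of replicate 1. Replicate 2 placed 1 domain over 742 of the 905, and replicate 1 placed 1 over 770. A total of 694 had at least 50% of their length in each replicate. The domains of replicate 2 alone were mostly not small touches either, since 884 of the 1110 lay wholly inside a domain of replicate 2.

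Distance to the other replicate separated the single-replicate classes. Domains of replicate 2 alone lay at a median of 8.89 kb from the nearest domain of replicate 1, and 504 of 1110 (45.4%) lay more than 10 kb away. Domains of replicate 1 alone lay at a median of 1.50 kb from the nearest domain of replicate 2, and 25 of 301 (8.31%) lay more than 10 kb away. On the autosomal arms these medians were 3.88 to 5.39 kb for replicate 2 alone and 3.14 to 3.58 kb for replicate 1 alone. Replicate 1 on X therefore departed from replicate 2 mostly near its domains, while replicate 2 also had domains in sequence where replicate 1 listed nothing for many kilobases. Replicate 2 has more domains on X, which by itself shortens the distance to it.

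Domains under 10 kb were closely spaced. The median gap between neighbours was 1651 bp, with quartiles of 506 and 4673 bp. Of the 2611 gaps, 1001 (38.3%) measured 1 kb or less and 2007 (76.9%) 5 kb or less, while 136 (5.21%) exceeded 20 kb. A domain of 10 kb or more filled part of 119 gaps, among them 52 of those over 20 kb. Spacing on the other arms was similar, with median gaps of 1627 to 1794 bp.

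A cluster was defined as 5 or more domains with no gap over 5 kb. There were 196 clusters, which held 1801 domains (69.0%) and spanned 7.46 Mb, or 36.5% of the stretch. They had a median of 8 domains over 33.5 kb. With gaps of at most 2 kb there were 109 clusters with 30.0% of the domains, and with domains at or above the median score alone 49 clusters with 24.3% of those. Another 179 domains stood alone. Of the domains found in both replicates 76.2% lay in clusters, against 61.4% of those of replicate 2 alone, and 3.54% of those found in both stood alone, against 10.1%. At a gap of 5 kb most domains of either class were thus clustered, and the larger share standing alone in replicate 2 was not tested.

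Most clusters mixed the classes. In 140 of the 196, domains found in both stood beside domains of replicate 2 alone. In 62 clusters more than 50% of the domains were of replicate 2 alone, in 57 more than 50% were found in both and in 4 more than 50% were of replicate 1 alone. A total of 10 clusters consisted entirely of domains of replicate 2 alone.

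The largest cluster ran from 13152949 to 13294753 on X and held 33 domains in 142 kb, 12 of them found in both, 13 of replicate 2 alone and 6 of replicate 1 alone. Replicate 2 covered 56.5% of it and replicate 1 covered 53.5%. The second, from 16487171 to 16630276, held 32 domains, 17 of them found in both, and replicate 2 covered 55.5% of it and replicate 1 covered 47.2%. Replicate 2 thus covered more of both clusters, by less than the 12.3 points of the stretch as a whole.

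The third cluster, from 12979526 to 13074251, held 24 domains and was covered to 68.9% in replicate 2 and 36.7% in replicate 1. In the fourth, from 2868103 to 2970223, replicate 2 covered 18.1% and replicate 1 covered 69.6%, and of its 22 domains 10 were of replicate 1 alone and none of replicate 2 alone. This cluster goes against the direction of the chromosome as a whole. The fifth, from 8329667 to 8413502, held 22 domains, of which 13 were found in both, with 45.6% covered in replicate 2 and 54.0% in replicate 1.

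Clusters were interrupted by long stretches without domains under 10 kb of the combined list. The longest gap between domains measured 114 kb, from 12854488 to 12968169, and was covered to 4.88% in replicate 2 and to 0% in replicate 1. The second, from 14388735 to 14495667 (107 kb), was covered to 1.41% in replicate 2 and 0% in replicate 1. The third, from 11119343 to 11215546 (96.2 kb), held no combined domain, although 9 domains of replicate 2 touched it and covered 19.6%, against 0% in replicate 1. The fifth, from 3460767 to 3551336 (90.6 kb), had 4.13% in replicate 2 and 0% in replicate 1. These 4 gaps had no covered base in replicate 1 and from 1.41% to 19.6% in replicate 2. They were chosen for lacking domains of the combined list under 10 kb, and held no longer one either. On the stretch, 29 of 1507 domains of replicate 1 (1.92%) lay in no combined domain, against 315 of 2629 (12.0%) of replicate 2. The 0% in replicate 1 thus follows largely from the choice. The fourth, from 1138604 to 1229954, was of another kind, since 3 domains of 10 kb or more filled 87.6 kb of its 91.4 kb, with 66.4% covered in replicate 2 and 91.4% in replicate 1.

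Domains of one class followed each other along the chromosome. After a domain of replicate 2 alone, the next was of the same class in 67.7% of 1109 pairs, while that class made up 42.5% of all domains. After a domain found in both, the next was found in both in 51.7% of 905 pairs, against 34.6% of all. On the autosomal arms the next domain after one of replicate 2 alone was of that class in 44.5% to 47.5% of pairs, where the class made up 24.5% to 27.3% of the domains. On X and on the autosomal arms alike, that share was above the overall share of the class. A single replicate domain can lie over several neighbouring combined domains, so neighbours are not always separate calls of a replicate.

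Runs of replicate 2 alone were long on X. There were 65 runs of 5 or more such domains and the longest had 33, whereas runs of replicate 1 alone reached 5 domains once. On the autosomal arms the longest run of replicate 2 alone had 11 to 15 domains and the longest of replicate 1 alone 14 to 16. Runs of 5 or more numbered 12 to 22 per autosomal arm for replicate 2 alone and 17 to 24 for replicate 1 alone. A class with a larger share of the domains forms more and longer runs by itself. On X that share was 42.5% for replicate 2 alone and 11.5% for replicate 1 alone, and run length was not tested. Domains found in both formed runs of up to 18 on X. That run, from 6482977 to 6635274, spanned 152 kb with 3 domains of 10 kb or more between them, and was covered to 71.7% in replicate 2 and 69.8% in replicate 1.

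The run of 33 domains of replicate 2 alone extended over 192 kb, from 4999853 to 5192259. Replicate 2 listed 35 domains over it, covering 56.9%, and replicate 1 listed none. The next longest, 32 domains from 17826579 to 17972597, was covered to 72.2% in replicate 2 by 26 domains and to 0% in replicate 1. In the third run, 17 domains from 19868883 to 19999796, replicate 2 covered 40.9% and replicate 1 covered 0%. In these runs the median score in the combined list was 0.417, 0.370 and 0.411, around the median of 0.400 for the class. A run of 15 domains from 6769948 to 6863013 was covered to 54.0% in replicate 2, and another of 15 from 20200035 to 20292104 to 58.8%. Neither of them held a domain of replicate 1. The runs were chosen for lacking overlap with replicate 1, and 29 of its 1507 domains (1.92%) lay in no combined domain. Its absence from these runs thus follows largely from the choice.

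**Figure D4:**
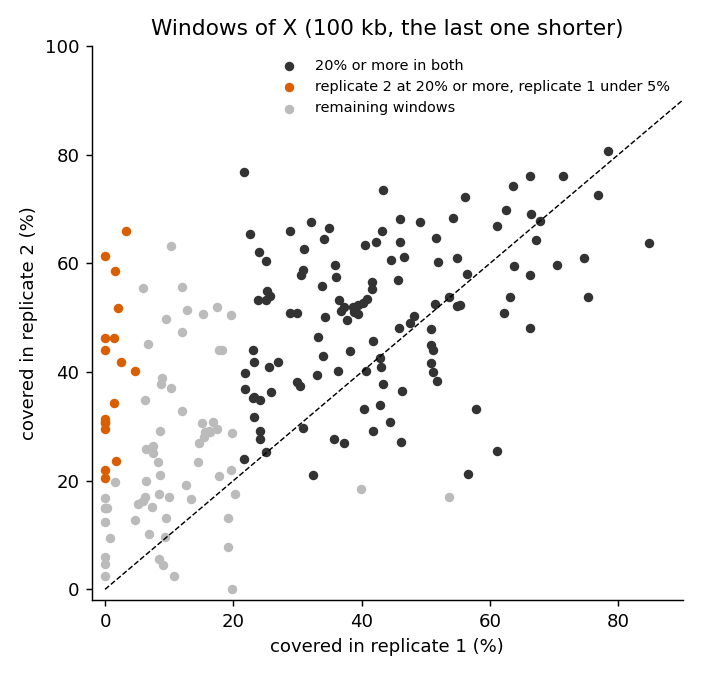
Each point is one of 205 windows on X, 204 of 100 kb and a last one of 22.8 kb, placed by its covered share in replicate 2 (vertical, %) and replicate 1 (horizontal, %), with a dashed line of equality. Points of 159 windows lie above the line, and 17 windows stand at the left edge with at least 20% in replicate 2 and under 5% in replicate 1.

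Windows of 100 kb, of which the last measures 22.8 kb, give the same separation without the combined list. At least 20% was covered in each replicate in 121 of 205 windows (59.0%), close to the 56.9% of 889 windows on the autosomal arms. In 17 windows (8.29%) replicate 2 covered at least 20% and replicate 1 under 5%, against 1.24% of the autosomal windows. The reverse was found in 0 of 205 windows, against 1.35%. Replicate 2 exceeded replicate 1 in 159 windows of X (77.6%) and was below it in 46. On the autosomal arms replicate 2 was higher in 43.4% (3L) to 47.4% (2L) of the windows. On X, replicate 2 had no covered base in 1 window and replicate 1 in 16. Leaving out the short last window, the excess of replicate 2 was seen in 158 of 204 and replicate 1 had no covered base in 15. With windows of 50 kb the share marked in replicate 2 alone was 13.7%, and with windows of 200 kb it was 3.88%. For replicate 1 alone the share was 0.733% with windows of 50 kb and 0% with windows of 200 kb. Neighbouring windows are not independent, and these shares were not tested.

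The windows with the largest excess of replicate 2 lay together in part. From 17800001 to 17900000, replicate 2 covered 66.0% and replicate 1 covered 3.26%, and 21 of the 24 domains there were of replicate 2 alone. The window from 5000001 to 5100000 had 61.4% covered in replicate 2 against 0% in replicate 1, and all of its 21 domains were of replicate 2 alone. From 20200001 to 20300000 the values were 58.6% in replicate 2 and 1.54% in replicate 1. The fourth, from 2300001 to 2400000, also held 2 domains of 10 kb or more and was covered to 76.7% in replicate 2 and 21.6% in replicate 1. The fifth, from 17900001 to 18000000, adjoined the first, at 63.2% in replicate 2 and 10.3% in replicate 1.

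At the other extreme, replicate 1 exceeded replicate 2. From 2900001 to 3000000, a window that the fourth cluster described above fills for the most part, replicate 2 covered 17.0% and replicate 1 covered 53.6%. From 18100001 to 18200000 replicate 2 covered 25.4% and replicate 1 covered 61.2%, and from 4900001 to 5000000 replicate 2 covered 21.3% and replicate 1 covered 56.6%. The window from 2800001 to 2900000 had 33.3% in replicate 2 and 57.8% in replicate 1, and that from 18500001 to 18600000 had 53.8% in replicate 2 and 75.3% in replicate 1. Each of these windows still had at least 17.0% covered in replicate 2.

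Some of these extremes were neighbours, which was seen in the profile and then described. In the 100 kb before position 4999853, replicate 2 covered 21.3% and replicate 1 covered 56.6%, and of 19 domains 9 were found in both, 1 was of replicate 2 alone and 9 were of replicate 1 alone. In the 192 kb run that begins there, replicate 2 covered 56.9% and replicate 1 covered 0%. That run was chosen for lacking overlap with replicate 1, so the 0% was largely built into the choice of position. Nor was the change a clean exchange. In the last 10 kb before the position replicate 2 covered 29.46% and replicate 1 covered 20.15%. The covered shares also differed between the sides of 18.1 Mb, the edge of a window chosen as an extreme. Over the 300 kb up to it, replicate 2 covered 57.0% and replicate 1 covered 5.34%, with 51 of 58 domains of replicate 2 alone, and over the 100 kb after it replicate 2 covered 25.4% and replicate 1 covered 61.2%. The change did not fall at the edge itself. In the first 10 kb after it replicate 2 covered 59.95% and replicate 1 covered 0%. From 18130001 to 18140000 replicate 2 covered 13.45% and replicate 1 covered 41.97%. From 18220001 to 18230000 replicate 2 was again higher, at 78.6% against 0%.

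The 10 highest-scoring domains with at least 50% of their length in each replicate measured 3.42 to 8.75 kb and were spread over the stretch. The first, from 6230879 to 6239395, scored 1.48 in the combined list and lay in replicate 2 domains over 82.3% of its bases and in a replicate 1 domain over 96.4%. The second, from 16534617 to 16543366, lay in the second largest cluster, scored 1.47 and was inside replicate 2 to 94.9% and replicate 1 to 100%. The third, from 6890058 to 6897138, scored 1.46, with 96.9% in replicate 2 and 100% in replicate 1. Over all 10, between 70.0% and 99.5% of the length lay in replicate 2 and between 85.9% and 100% in replicate 1. Of the 44 domains with a score of 1 or more, 41 were found in both replicates.

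The remaining 7 of these scored from 1.22 to 1.44. The distal ones ran from 2020482 to 2026934 and from 9491578 to 9495725. Another 3 lay between 13 and 16 Mb, from 13643575 to 13647430, from 14828009 to 14831425 and from 15702871 to 15709415. The last 2, from 19574625 to 19579323 and from 19670466 to 19678019, lay in the same cluster of 21 domains. Within its own list each replicate also placed most of them near the top. The best domain of replicate 2 over them ranked between 2 and 120 of 2629 on the stretch for 9 of the 10, and 820 for the one from 14828009. In replicate 1 the best domain ranked between 11 and 73 of 1507 for all 10.

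Domains of replicate 2 alone scored lower. The highest, from 6456806 to 6457923, scored 1.17 and measured 1118 bp, but a domain of replicate 2 took up 20.4% of it and it lay 5627 bp from the nearest of replicate 1. The second, from 4630003 to 4631220, scored 0.916, with 86.7% in replicate 2 and a distance of 28.2 kb to replicate 1. The third, from 13747934 to 13751535, scored 0.853 and lay wholly inside a domain of replicate 2, 7489 bp from replicate 1. The fourth, from 11049966 to 11054440, scored 0.851 and missed a domain of replicate 1 by 22 bp. These examples show that the class holds near misses as well as domains far from any call of replicate 1.

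The next 6 scored from 0.736 to 0.822. One of them, from 4710142 to 4711365, lay wholly in a domain of replicate 2 and 91.1 kb from the nearest of replicate 1, and another, from 12209963 to 12214143, had 90.8% in replicate 2 and lay 49.2 kb from replicate 1. The one from 20170547 to 20171613, had 5.34% of its bases in replicate 2. The others ran from 19832603 to 19835913, from 13079600 to 13080934 and from 13073195 to 13074251, each with at least 98.3% in replicate 2.

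The 5 highest-scoring domains of replicate 1 alone measured 2.38 to 5.80 kb, and each lay within 5 kb of a domain of replicate 2. The first, from 12645681 to 12651478, scored 0.986 in the combined list and lay wholly inside a domain of replicate 1 that ranked 4 of 1507 in that list, 352 bp from a domain of replicate 2. The others, from 7955348 to 7959051, 10366591 to 10369760, 19414404 to 19417579 and 1375795 to 1378175, scored 0.780 to 0.847 and lay 1488 to 4704 bp from replicate 2.

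Short domains were also set beside the 143 long ones of the stretch. Of the long domains, 141 overlapped both replicates and 2 overlapped replicate 2 alone. Domains under 10 kb that were found in both lay within 5 kb of a long domain in 159 of 905 cases (17.6%), against 51 of 1110 (4.59%) for those of replicate 2 alone. For replicate 1 alone it was 32 of 301 (10.6%), and for neither 31 of 296 (10.5%). Over all 2612 domains it was 273 (10.5%), so most domains of every class lay further than 5 kb from a long one. The difference between the classes was not tested, and the shares were not computed for the autosomal arms.

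The replicate lists themselves show what the combined list took up. Of the 2629 domains of replicate 2 on the stretch, 1386 (52.7%) overlapped replicate 1, with a median length of 2747 bp, and 1243 (47.3%) did not, with a median of 2014 bp. Of the 1507 domains of replicate 1, 1212 (80.4%) overlapped replicate 2, with a median of 2759 bp, and 295 (19.6%) did not, with a median of 1888 bp. In replicate 2, 315 domains (12.0%) lay in no combined domain of X, and in replicate 1, 29 (1.92%). Among domains of 10 kb or more, 57 of 70 in replicate 2 and all 102 in replicate 1 had a counterpart in the other list. The 13 long domains of replicate 2 without a counterpart reached 17.0 kb. These shares of the replicate lists were not computed for the autosomal arms, so they are not shown to be particular to X.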

How the data were processed

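H3K9me1 was mapped by ChIP-seq in 2 ChIP and 2 input samples, grouped and numbered by their titles. The submitters' processing notes name Bowtie 0.12.7, and coordinates are on FlyBase release 5 per the file headers. The authors deposited a region list for each ChIP replicate and a combined list. The caller, its thresholds and read depth are not stated in the labels or headers. Each region carries a score deposited by the authors, of unstated scale, which was above 0 in every enriched and below 0 in every depleted region. Scores were compared within a list and never between lists.

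From these lists, overlaps, covered bases, gaps, runs and windows were computed in Python 3.11.15 with numpy 2.4.6, pandas 2.3.3 and scipy 1.17.1. The functions were tested on simulated lists with known answers. A combined domain counted as found in a replicate at an overlap of 1 bp or more. The 2 ChIP replicates of one group, and a combined list made from them, allowed no test, so all values are descriptions. Named regions were the 10 highest-scoring domains with at least 50% of their length in each replicate, the 10 highest of replicate 2 alone and the 5 highest of replicate 1 alone. The 5 largest clusters, longest replicate 2 runs, longest gaps and windows of largest and smallest difference were also named. The domains and these rules were chosen with earlier results of these data known. Genes, sequences and base composition were not analysed here, since the only gene table used lists genes on a different release. Alternatives covered the overlap criterion, score and length filters, merging, cluster gap, window size and window limits.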

Additional observations from a re-analysis of the deposited data

Results flagged for a closer look

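The combined list also holds regions marked as depleted of H3K9me1, which no comparison above used. On the X stretch there were 4 of them in the combined list, 0 in replicate 2 and 2 in replicate 1. Over all sequences the combined list held 49, replicate 2 held 2 and replicate 1 held 11. The 4 on X were taken up because their number exceeds 3, the upper limit on a mean that an observed count of 0 allows. The lists rest on the same samples, so this was a rule of choice and not a test. They ran from 5812319 to 5813684, 10213792 to 10215260, 13212142 to 13213489 and 14918021 to 14919620. The one that begins at 10213792 had 94.3% of its length inside a domain called enriched in replicate 2, and those that begin at 13212142 and 14918021 lay wholly inside domains called enriched in replicate 1. The one at 13212142 lay 35 bp from an enriched domain of the combined list, inside the largest cluster. Their scores ran from -0.113 to -0.00546.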

How the results depend on the processing

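Of 63 alternative values for 16 results, 32 stayed within the SD over the replicates, an exact 95% binomial or median interval, or 1.5 times a count, 31 moved and no single value changed sign, although the order of classes turned in 2 cases below; except where stated, the cause was not tested. Some could not move: merging replicate regions within 1000 bp cannot add overlaps with domains of over 1000 bp, and with 2 replicates leaving out 1 (29.3% to 41.6% covered) always stays within the SD. The gap of 12.3 points between replicates stayed at 10.2 to 15.8. With 50% of a domain covered, 26.6% were found in both, 46.2% in replicate 2 alone and 14.7% in replicate 1 alone, with median lengths of 3758 bp (both) and 1850 bp (replicate 2 alone) and scores of 0.613 and 0.410. At or above the median score, 56.7% were found in both, 31.1% in replicate 2 alone, 5.59% in replicate 1 alone and 6.66% in neither, so the order of the first 2 classes turned; gaps then had a median of 4759 bp and 49 clusters held 24.3%, because domains were removed. From 1301 bp the order turned too, with 43.0% in both, 40.5% in replicate 2 alone (median 1973 bp) and 4.63% in neither. Without the upper length limit, 38.0% were in both and 40.4% in replicate 2 alone, and with long regions the median gap was 1361 bp and 78.2% were clustered. Averaged over 3 classes of length, median scores were 0.469 (both) and 0.424 (replicate 2 alone). Gaps of at most 2000 bp gave 109 clusters with 30.0% of domains, and of at most 10000 bp 86.9%. Windows of replicate 2 alone were 13.7% at 50 kb and 3.88% at 200 kb, and windows marked in both 68.0% at 200 kb and 42.0% with limits of 30% and 10%. No paired analysis was possible because the inputs have no region list here. Read depth is unknown, so absence of a call in replicate 1 does not show absence of the mark.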

Other observations

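The highest score of the combined list, on any sequence, belonged to an X domain of 1010 bp from 12277247 to 12278256 that overlapped neither replicate. It scored 2.89, the next highest in the list 2.57. The nearest combined domains lay 51.7 kb before it and 58.6 kb after it, with scores of 0.649 and 0.455. The nearest domain of replicate 2 was 4591 bp away and the nearest of replicate 1 was 78.4 kb away. It is shorter than any domain of the replicate lists. Another domain found in neither, from 19836991 to 19838124, scored 1.43 and measured 1134 bp, and no further domain of that class reached a score of 1. Both were chosen after their values were seen.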
